A study of Mus musculus with 24 samples.

Results

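The Myc, Max and Mxd network was followed here in mouse CD4+ T cells through its 10 members: Myc, Mycn, Max, Mxd1, Mxd3, Mxd4, Mxi1, Mnt, Mlx and Mga. They were chosen by name, as a family of partner proteins, with earlier results of these data known. All 10 were among the 22009 named genes of the expression table. RNA was sequenced from CD4+ T cells purified by negative selection from the spleen of wild-type (WT) adult C57BL/6 mice, pooled between animals. The labels name no further sort, and the study's figure legend for the time course describes purified CD4+ T cells of the spleen. The methods of the study, however, call the cells cultured for sequencing naive. Whether memory cells were present at rest is therefore not settled. The 24 libraries held 2 of resting cells, 18 of cultures and 4 of cells kept with actinomycin D, a drug that blocks transcription. All cultures received anti-CD3e and anti-CD28. Th0 cultures received nothing more. Recombinant IL-12 with anti-IL-4 was added for Th1, and recombinant IL-4 with antibodies to IFN-γ and to IL-12 for Th2. Each condition was sequenced once at 4, 8, 12, 16, 20 and 24 h. A time point thus has 3 cultures that differ in condition, and no single combination has a replicate. By the study's figure legend, the cells were a pool of several mice and were taken out of the cultures over time. The libraries of a condition, each called a culture here, may therefore be draws from 1 culture. The fits take them as independent. The actinomycin libraries were taken 0, 1, 2 and 4 h after the drug was added to cells stimulated for 16 h, 1 library each. No source used here says which of Th0, Th1 or Th2 they were. Nor do the labels say that the 2 resting libraries came from separate animals, and p-values measure only the spread between these libraries.

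Myc is a transcription factor of the basic helix-loop-helix leucine zipper class that binds DNA only as a pair with Max. Max also pairs with the Mxd proteins (Mxd1, Mxi1, Mxd3 and Mxd4) and with Mnt, which recruit Sin3 corepressors to the same DNA sites, so that these proteins compete with Myc for Max and for DNA. Mlx is a partner of Mondo proteins, Mxd1, Mxd4 and Mnt, and Mga is a large Max-binding protein of a Polycomb complex. Mycn is a close relative of Myc that is used mainly in embryonic tissues. In T cells, Myc is induced by the antigen receptor and is needed for the growth and metabolic change that come before division, while Mxd genes are known as genes of resting or differentiating cells.

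Myc-Max and Mxd-Max pairs both recognise the E-box CACGTG, which reads the same on both strands. The letters were searched in the promoters of the RefSeq table for GRCm38.p6, which holds 250 bases before and 50 after each start site. A promoter was found for 9 of 10 members (all but Myc), in 11 windows, and 4 of these 11 (36.4%) held the E-box, against 2349 of all 32851 promoters (7.15%). The 4 members were Mxd4, Mnt, Mlx and Max. Of the genes listed as activated by Myc, 8 of 28 promoters (28.6%) held it. The shares of the other lists were 1 of 11 promoters for genes repressed by Myc (9.09%), 2 of 12 for coactivators (16.7%), 1 of 4 for the other Myc and Mlx partners (25%), and 0 of 9 for corepressors and 0 of 11 for genes of Myc turnover. The windows around the sites in the 4 members, and those in Cdk4 and Ldha, which are described with the target genes, are given 5′ to 3′ on the gene's strand with the E-box in capitals, to show the letters these promoters share. The Cdk4 promoter held 4 E-boxes, and those at -172 and -11 lie outside the stretch printed. Positions are those of the first base of the E-box, counted from 0 at the start site. A match is a description of the sequence and no evidence of binding.

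Mxd4, chr5:34187894-34187959, minus strand, E-box at -219: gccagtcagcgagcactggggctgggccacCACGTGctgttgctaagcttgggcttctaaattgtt
Mnt, chr11:74830771-74830836, plus strand, E-box at -123: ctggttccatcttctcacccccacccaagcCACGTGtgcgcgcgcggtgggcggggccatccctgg
Mlx, chr11:101087220-101087285, plus strand, E-box at -40: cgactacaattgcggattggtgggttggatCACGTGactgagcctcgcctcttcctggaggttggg
Max, chr12:76962234-76962263, minus strand, E-box at -3: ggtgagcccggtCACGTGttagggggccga
Cdk4, chr10:127063387-127063452, plus strand, E-boxes at -118 and -98: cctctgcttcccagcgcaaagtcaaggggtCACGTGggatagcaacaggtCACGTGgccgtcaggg
Ldha, chr7:46845629-46845694, plus strand, E-box at -145: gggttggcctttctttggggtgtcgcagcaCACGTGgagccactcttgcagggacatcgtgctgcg
Ldha, chr7:46845726-46845791, plus strand, E-box at -48: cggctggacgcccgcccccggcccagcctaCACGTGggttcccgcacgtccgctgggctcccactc

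The genes lie apart in the genome (GRCm38, GENCODE). Myc is at chr15:61985391-61990374 and Mycn at chr12:12936093-12941914. Max is at chr12:76937269-76962201, Mlx at chr11:101087277-101092207 and Mga at chr2:119897228-119969581. The repressors are at chr6:86647042-86669161 (Mxd1), chr13:55325168-55329823 (Mxd3), chr5:34173883-34187720 (Mxd4), chr19:53310518-53375810 (Mxi1) and chr11:74830920-74845725 (Mnt). Exons of Mxd3 overlap those of Prelid1 on the other strand, Mxd4 those of Gm42846, Mxi1 those of Gm10197 and Mlx those of Psmc3ip. Whether reads were counted by strand is not given, so the levels of these 4 members may hold reads of the partner.

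Values are RPKM, read counts divided by transcript length and by library size, a scale per length on which genes can be set beside each other. The steps between low values gave the mapped reads per library, in units of 1e6 reads, as 17.5 to 33.0 in the time course and 18.1 to 25.7 in the actinomycin series. The 10 CD4 T cell markers were expressed throughout, with summed levels of 1609 to 2390 RPKM in the time course. Red-cell transcripts were very high at rest, at 38876 to 42419 RPKM for 8 measured genes of 12 listed. Their sum was 29399 to 47122 RPKM at 4 h and 142 to 212 RPKM at 24 h. Macrophage markers went from 575 to 595 RPKM at rest to 9.07 to 13.4 RPKM at 24 h, and B cell markers from 67.2 to 77.5 to 9.49 to 18.5 RPKM, with no marker at 0 in every library of a group. Resting and cultured libraries differ in a tag in their names whose meaning is not given, and activation cannot be told apart from what the tag may mark in any comparison with rest. In these bulk samples, fewer cells of a type and less RNA per cell cannot be told apart either.

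Changes were fitted with limma on log2(RPKM + 0.5) over every gene that averaged 1 RPKM or more. A gene was called where the adjusted p was under 0.05 and the change at least 2-fold. Mycn did not pass the filter on low values, so 9 of 10 members were tested.

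In resting cells, Max had the highest level (58.9 and 55.9 RPKM in the 2 libraries). Myc followed at 40.3 and 43.9 RPKM, Mlx at 41.4 and 38.2 RPKM and Mxd4 at 34.2 and 42.3 RPKM, and these 3 overlapped. Mga measured 27.4 and 28.9 RPKM. Mxd1 (16.1 and 16.9 RPKM) and Mnt (16.3 and 14.4 RPKM) overlapped, followed by Mxd3 (10.1 and 11.5 RPKM) and Mxi1 (8.76 and 8.08 RPKM). Mycn was lowest, at 0.522 and 0.283 RPKM. Resting cells had Max above any single partner, and the 4 Mxd transcripts each at least as high as 8.08 RPKM.

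By 24 h Myc had passed Max at the top of the order and Mga stood above Mxd4. Mxi1 and Mxd3 had exchanged places, and Mycn was still last. Myc was first at 257 ± 46.0 RPKM (SD, n = 3), then Max at 95.5 ± 21.3, Mlx at 45.8 ± 1.75 and Mga at 23.8 ± 0.447 RPKM. Mxd4 (11.1 ± 2.37), Mxd1 (10.2 ± 2.74) and Mnt (9.00 ± 1.56 RPKM) overlapped. Mxi1 was at 2.57 ± 0.475 RPKM, Mxd3 at 1.05 ± 0.306 RPKM and Mycn at 0.359 ± 0.177 RPKM. The SD here is over 3 cultures that differ in condition.

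**Figure D1:**
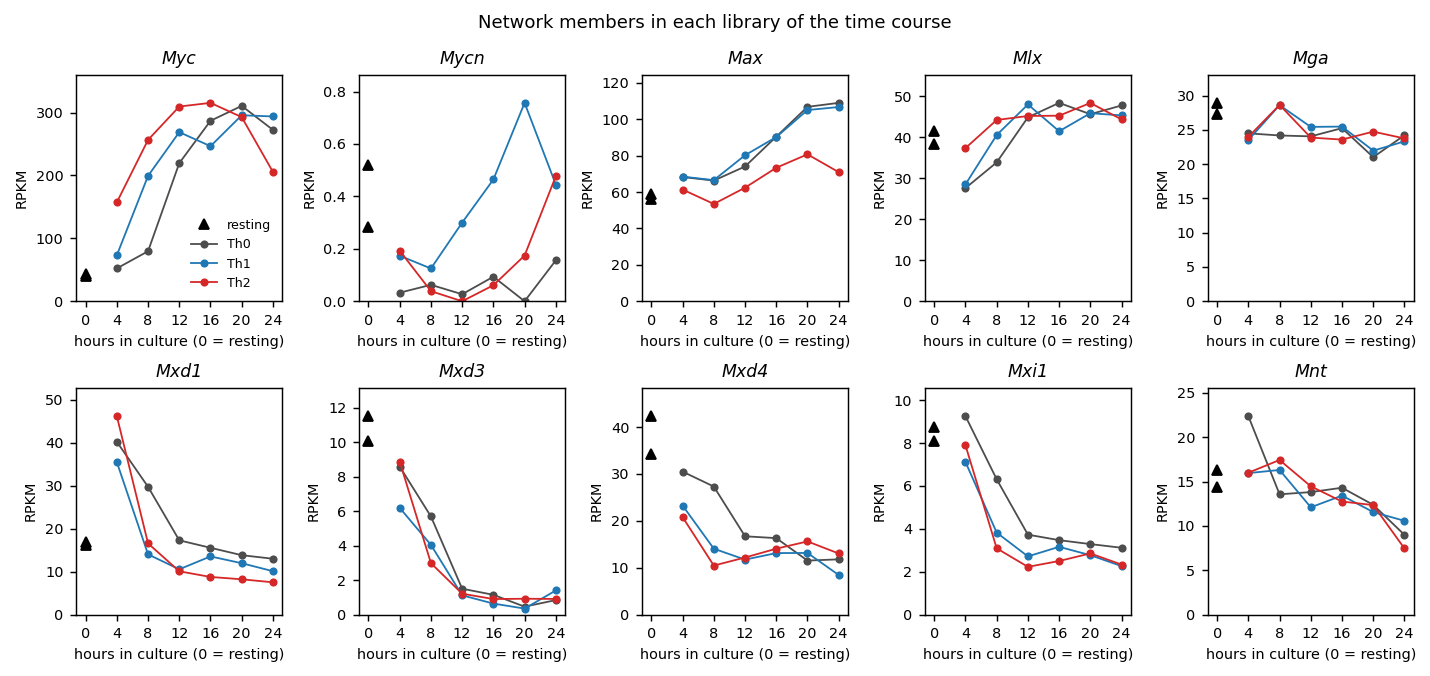
RPKM (linear axes from 0) of the 10 members against hours in culture, with the 2 resting libraries as triangles at 0 h and 1 point per culture of Th0, Th1 and Th2. Myc lay between 52.2 and 315 RPKM in the 18 cultures against 40.3 and 43.9 RPKM at rest, and Mxd3 fell from 10.1 and 11.5 RPKM to between 0.838 and 1.40 RPKM at 24 h.

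Myc was above its resting level in every culture, and the cultures of the 3 conditions lay furthest apart in ratio at 4 and 8 h. Th0 cultures measured 52.2, 79.5, 219.6, 287, 311 and 272 RPKM from 4 to 24 h. Th1 cultures measured 73.1, 199, 269, 247, 296 and 294 RPKM over the same hours. Th2 cultures measured 157, 257, 309.6, 315, 293 and 206 RPKM. All 18 cultures were above both resting libraries, as were 12.4% of the 10897 genes tested. The Th0 culture was at 52.2 RPKM at 4 h and within the range of the others at 16 h, whereas the Th2 culture was at 157 RPKM at 4 h.

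At 4 h, the Myc change over the 3 conditions was 1.00 on the log2 scale (SE 0.41) and did not pass (limma, adjusted p = 0.0723). Without the Th0 cultures it was 1.34 and passed (limma, adjusted p = 0.00753). At 8 h Myc had risen by 1.91 (SE 0.41, limma, adjusted p = 0.00105), and from 12 h on by 2.63, 2.73, 2.82 and 2.58, the last with an adjusted p of 4.29e-05 by limma. Mycn added little to this: its highest value in any library was 0.757 RPKM (Th1, 20 h), and it was listed at 0 in the Th0 20 h and the Th2 12 h culture. In Th1 cultures Mycn ran from 0.125 to 0.757 RPKM, above the Th0 culture at 6 of 6 times, but all values were under the filter.

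Max, the obligate partner, had smaller differences from rest than Myc. Th0 cultures measured 68.2, 66.3, 74.0, 90.4, 107 and 109 RPKM. Th1 cultures were within a few RPKM of these, at 68.5, 66.5, 80.2, 90.2, 105 and 107. Th2 cultures measured 61.4, 53.4, 62.4, 73.3, 80.7 and 70.9 RPKM. The change against rest was 0.75 at 20 h (limma, adjusted p = 0.00182) and 0.70 at 24 h (limma, adjusted p = 0.00275), both under 2-fold and so not called. The ratio of Myc to Max RPKM went from 0.684 and 0.786 at rest to between 2.50 and 2.90 at 24 h, with the highest value of the series, 4.96, in the Th2 culture at 12 h.

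The Mxd genes did not move together. Mxd1, a repressor known from cells leaving the cycle, was the only 1 of 9 members called at 4 h, and it was higher. It measured 40.2 (Th0), 35.5 (Th1) and 46.1 RPKM (Th2) at 4 h against 16.1 and 16.9 RPKM at rest. Mxd1 was the one member whose values gave whole reads, from 821 to 4562 in the time course, and its exact Poisson 95% intervals at 4 h ran from 34.3 to 47.5 RPKM over the 3 cultures, apart from 15.3 to 17.7 RPKM at rest. These intervals cover counting error only. The log2 change was 1.26 (SE 0.32, limma, adjusted p = 0.00624), where 2.61% of genes were called higher and 7.97% lower. Without resting replicate 1, Mxd1 at 4 h did not pass, with an adjusted p of 0.0536 by limma.

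The Mxd1 rise did not last. Th0 cultures went from 40.2 RPKM at 4 h through 29.7 at 8 h to 17.3, 15.5, 13.8 and 13.0 RPKM. Th1 cultures measured 14.0, 10.5, 13.5, 11.9 and 10.1 RPKM from 8 to 24 h, and Th2 cultures 16.5, 10.1, 8.74, 8.20 and 7.50 RPKM. At 8 h, Th0 was still above both resting libraries, while Th1 was below both. All cultures from 16 h on were below both resting libraries, with a change against rest of -0.70 at 24 h that did not pass (limma, adjusted p = 0.0626). From 4 to 24 h, Mxd1 fell by 1.97 on the log2 scale (SE 0.29, limma, adjusted p = 2.04e-05).

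Mxd3, known from cells in S phase, had the deepest fall of the members. In Th0 cultures it went from 8.59 RPKM at 4 h and 5.70 at 8 h to 1.50, 1.15, 0.458 and 0.838 RPKM. In Th1 cultures it measured 6.19, 4.04, 1.12, 0.636, 0.347 and 1.40 RPKM. In Th2 cultures it measured 8.87, 2.98, 1.21, 0.900, 0.917 and 0.906 RPKM. All 18 cultures were below both resting libraries. The Th2 to Th0 ratio of Mxd3 ran from 0.524 at 8 h to 2.00 at 20 h, where both levels were under 1 RPKM. The log2 change was -1.29 at 8 h (SE 0.26), -2.67 at 12 h, -3.43 at 20 h and -2.88 at 24 h (limma, adjusted p = 1.18e-07 at 24 h). Since a pseudocount of 0.5 is near these low levels, the fold is understated.

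Mxd4, a Mxd gene of resting and differentiating cells, was the repressor with the highest level at rest. Th0 cultures measured 30.5, 27.3, 16.7, 16.3, 11.5 and 11.8 RPKM. Th1 cultures measured 23.3, 14.0, 11.7, 13.1, 13.1 and 8.44 RPKM, and Th2 cultures 20.8, 10.5, 12.2, 14.1, 15.6 and 13.0 RPKM. All 18 cultures were below the resting values of 34.2 and 42.3 RPKM, as were the values of 19.4% of genes tested. Mxd4 fell by 1.23 at 8 h (SE 0.30, limma, adjusted p = 0.00251) and by 1.76 at 24 h (SE 0.30, limma, adjusted p = 7.64e-05). The 8 h call was lost without the Th2 cultures and in a fit of only the libraries compared.

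Mxi1, which also recruits Sin3, was at 9.26 (Th0), 7.12 (Th1) and 7.90 RPKM (Th2) at 4 h, around its resting values. At 8 h it measured 6.31, 3.82 and 3.09 RPKM in the same order. It then reached 3.73, 3.47, 3.29 and 3.12 RPKM in Th0 cultures from 12 to 24 h, between 2.26 and 3.16 RPKM in Th1 and between 2.23 and 2.85 RPKM in Th2 cultures. Its change was -0.92 at 8 h (limma, adjusted p = 0.00397), under 2-fold, and it was called lower from 12 h on (-1.55 at 24 h, SE 0.23, limma, adjusted p = 2.86e-05).

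Mnt, the broadly expressed repressor that pairs with Max in most cells, overlapped its resting values of 16.3 and 14.4 RPKM until 12 h. Th0 cultures measured 22.4, 13.6, 13.8, 14.3, 12.4 and 8.99 RPKM. Th1 cultures measured 16.0, 16.3, 12.1, 13.4, 11.6 and 10.6 RPKM, and Th2 cultures 16.0, 17.4, 14.5, 12.7, 12.3 and 7.45 RPKM. From 16 h on all cultures were below both resting libraries, and the Th0 culture at 4 h was the highest of the series. The change at 24 h was -0.75 (limma, adjusted p = 0.000692), under 2-fold. By 12 h, then, Mxd3, Mxd4 and Mxi1 had fallen, Mxd1 had risen at 4 h and was no longer called, and Mnt was not called at any time.

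Mlx and Mga, the members that link the network to Mondo proteins and to Polycomb, were not called at any time. Mlx was lower than both resting libraries at 4 h (27.6, 28.5 and 37.3 RPKM against 41.4 and 38.2) and above both in every culture from 12 h on (41.4 to 48.3 RPKM). The Th2 culture led the others early, with 37.3 and 44.2 RPKM at 4 and 8 h against 27.6 and 33.8 RPKM in Th0 and 28.5 and 40.5 RPKM in Th1. From 12 to 24 h the 3 conditions overlapped. The Mlx change from 4 to 24 h was 0.56 (limma, adjusted p = 0.000496), under 2-fold. Mga stayed between 21.0 and 28.6 RPKM in the 18 cultures, with a change of -0.32 at 20 h (limma, adjusted p = 0.0106) and -0.24 at 24 h (limma, adjusted p = 0.0422), also under 2-fold.

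In counts, 3 of 9 members were called at 8 h (background 18.9% of genes), and 4 of 9 at 12 h (27.1%), 16 h (25.7%) and 20 h (29.0%). At 24 h, 1 member was higher (12.7% of genes) and 3 were lower (17.4%). Between 4 and 24 h, 5 of 9 were called (26.2%): Myc rose by 1.59, and the changes of Mxd1, Mxd3, Mxi1 and Mxd4 were -1.97, -2.44, -1.49 and -1.13. The median of the 9 members at 24 h was -0.70 on the log2 scale, beside -0.04 over all genes tested. Red-cell, B cell and macrophage transcripts also fell between rest and 24 h. The B cell sum went from 67.2 to 77.5 RPKM at rest to 36.9 to 56.7 RPKM at 4 h and 9.49 to 18.5 RPKM at 24 h. Macrophage markers were at 48.3 to 80.5 RPKM at 4 h. At that hour Mxd3 and Mxd4 were below both resting libraries in all 3 cultures. Mxi1 was below both in 2 of 3 and above both in the Th0 culture. The part of the red-cell, B cell and macrophage transcripts in the falls of Mxd3, Mxd4 and Mxi1 was not tested. With totals taken without the red-cell genes, an alternative added after the data were seen, Myc and these 3 members were still called at 24 h. From 4 to 24 h, the Myc and Mxd4 calls were lost without the Th1 cultures, and the adjusted p of Myc was then 0.0525 (limma).

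**Figure D2:**
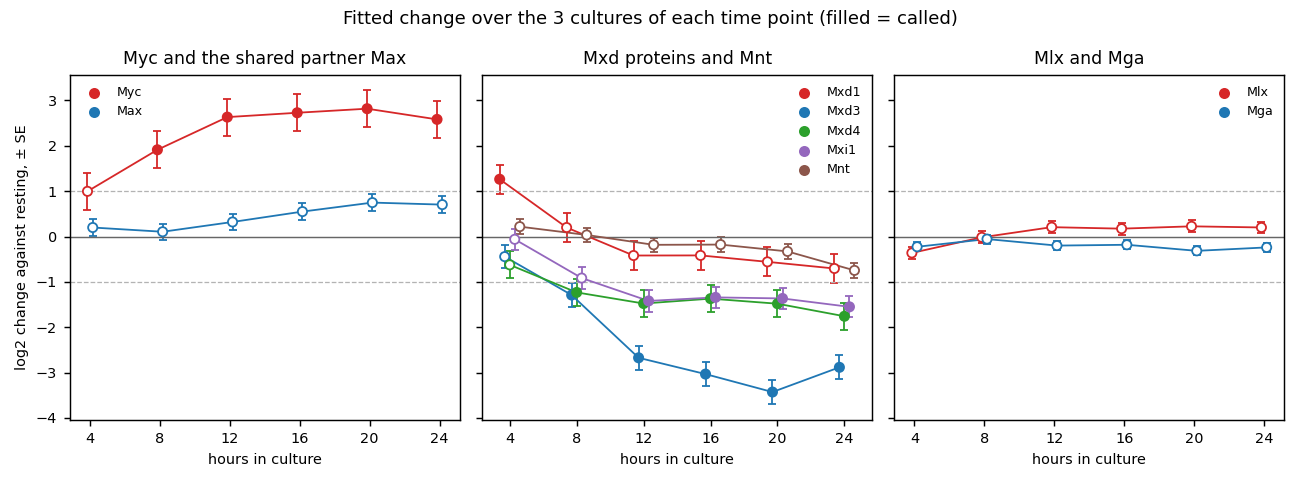
Log2 change against resting (vertical, ± SE, limma) at 4 to 24 h (horizontal, points set apart sideways for legibility), fitted over the 3 cultures of a time point, with filled points where the change was called. Myc climbed to 2.82 at 20 h, Mxd1 was at 1.26 at 4 h and -0.70 at 24 h, Mxd3 reached -3.43 at 20 h, and Mlx and Mga stayed near 0.

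The balance within the network was read as the RPKM of Myc and Mycn over the summed RPKM of Mxd1, Mxd3, Mxd4, Mxi1 and Mnt, in each library and with no test. At rest, the repressor sum exceeded Myc, with ratios of 0.477 and 0.474. The 4 h cultures had ratios of 0.471 (Th0), 0.833 (Th1) and 1.58 (Th2). At 8 h it was 0.964, 3.82 and 5.08. At 12 h it was 4.14, 7.05 and 7.72, and at 16 h 5.66, 5.63 and 8.10. At 24 h it was 7.23, 8.99 and 6.60, a mean of 7.61 ± 1.24 (SD, n = 3). Without Mnt in the sum, the mean at 24 h was 10.5. Myc made up 15.9% and 16.9% of the RPKM of all 10 members at rest, and up to 64.4%, in the Th2 culture at 12 h. The Th0 culture at 4 h had the ratio of resting cells, and the 3 conditions came close to each other by 20 h, at 7.50, 7.46 and 7.34.

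**Figure D3:**
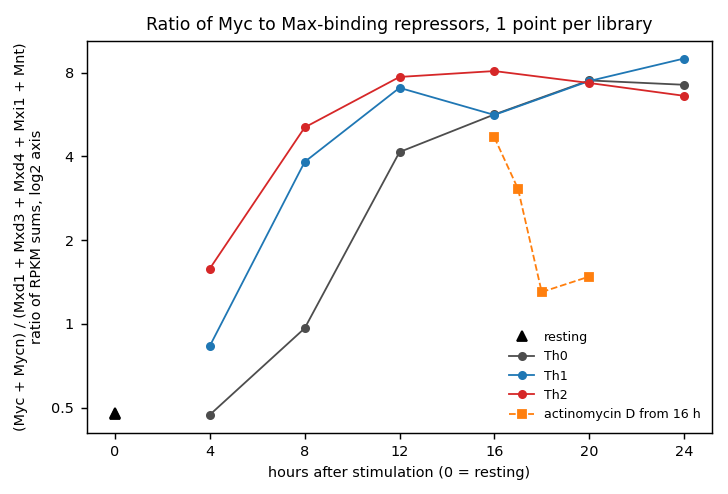
Ratio of Myc and Mycn to the 5 Max-binding repressors (log2 axis, ratio of RPKM sums) against hours after stimulation, 1 point per library. The ratio went from 0.474 and 0.477 at rest to between 6.60 and 8.99 at 24 h, and from 4.68 to 1.48 over 4 h with actinomycin.

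Between conditions, taken over all 6 times with the time point as a factor, no member was called in Th2 against Th0 (2.01% of 10737 genes called), Th2 against Th1 (1.96%) or Th1 against Th0 (0.494%). At an unadjusted p under 0.05 there were 4, 1 and 3 of 9 members. The share of all genes at that limit was not counted, so these counts are no result about the members. Smaller differences did pass the test in p. Max was lower in Th2 than in Th0 by 0.34 on the log2 scale (difference -0.34, SE 0.07, limma, adjusted p = 0.0016) and than in Th1 (difference -0.35, limma, adjusted p = 0.00169), in 6 of 6 time points each. The Th2 to Th0 ratio of Max was 0.899 at 4 h and 0.651 at 24 h, while the Th1 to Th0 ratio lay between 0.979 and 1.08 at the 6 times.

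Mxd1 was lower in Th2 than in Th0 (difference -0.61, SE 0.14, limma, adjusted p = 0.0048), in 5 of 6 time points, with Th2 to Th0 ratios between 0.557 and 0.594 from 8 h on and 1.15 at 4 h. At 24 h the exact Poisson 95% intervals of Mxd1 were 12.4 to 13.6 RPKM in the Th0 culture, 9.54 to 10.6 RPKM in Th1 and 7.01 to 8.00 RPKM in Th2, which did not overlap and cover counting error only. Mxi1 was lower in Th2 than in Th0 at 6 of 6 time points (difference -0.45, SE 0.10, limma, adjusted p = 0.00433). The Th1 cultures too lay below the Th0 cultures in both genes, at 6 of 6 hours, but these differences did not pass (Mxd1 -0.44, limma, adjusted p = 0.124; Mxi1 -0.35, limma, adjusted p = 0.0904). Between Th2 and Th1 the differences were -0.16 for Mxd1 and -0.10 for Mxi1, neither of which passed (limma, adjusted p = 0.499 and 0.594), and Mxi1 was higher in Th2 at 3 of 6 times. All these differences were under 2-fold. Myc was higher in Th2 than in Th0 by 0.57 over all times, which did not pass (limma, adjusted p = 0.0681), and over 12 to 24 h alone the difference was 0.04.

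The condition differences of Myc and Mxd4 moved with time. For Myc, the Th2 to Th0 ratio was 3.01 at 4 h and 3.23 at 8 h, then 1.41, 1.10, 0.943 and 0.755. The Th2 to Th0 difference fell by 0.11 log2 units per hour (SE 0.02, limma, adjusted p = 0.00454), and 3.21% of genes were called lower in this test. For Mxd4, the ratio was 0.682 at 4 h, 0.383 at 8 h, 0.729, 0.862, 1.36 and 1.11. The slope was 0.06 per hour (SE 0.02, limma, adjusted p = 0.0461), with 0.717% of genes called higher. The Mxd4 call was lost in 9 of 15 alternatives, among them leaving out any single time point but 4 h, and the Myc call in none of 15.

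No member was called for a moving difference between Th2 and Th1 (0.95% of genes) or Th1 and Th0 (0.0279%). The Myc slope of Th2 against Th1 was -0.06 per hour and did not pass (limma, adjusted p = 0.0889), though it passed without the 8 h time point. An unadjusted p under 0.05 was reached by 3 of 9 members in the first comparison and by 1 in the second, again with no share of all genes to set beside them. The summed RPKM of 5 activation markers (Cd69, Il2ra, Il2, Tfrc and Cd44) differed between the conditions in the order of Myc at 4 h, with 332 in Th0, 496 in Th1 and 665 in Th2 cultures. At 8 h the order was not that of Myc. The sum was then 471 in Th0 and 882 in Th1, with Th2 between them, whereas Myc was highest in Th2. The part of these markers in the early Myc and Mxd4 differences was not tested.

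**Figure D4:**
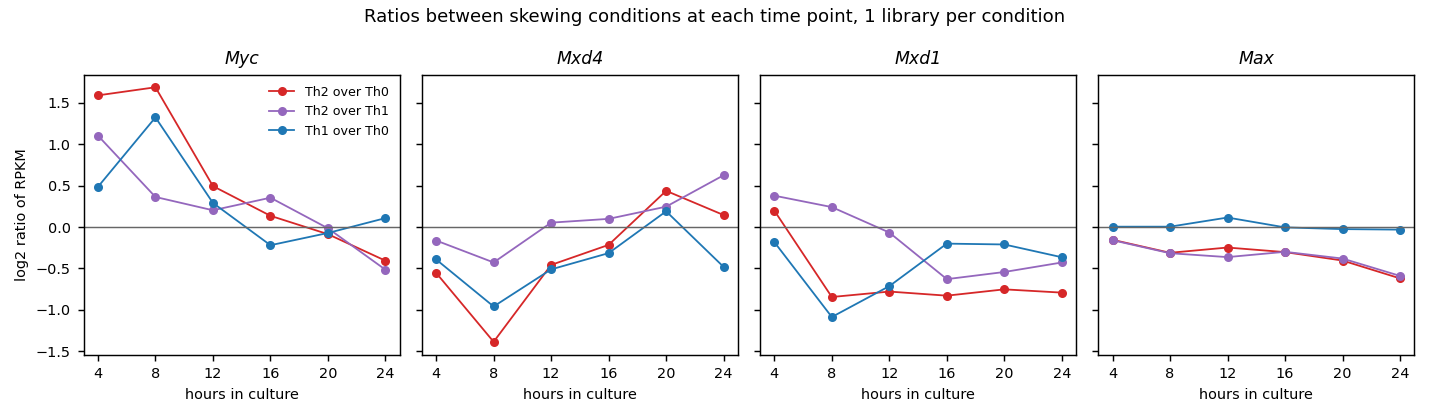
Log2 ratio of RPKM between conditions (vertical) at each time point (horizontal) for Myc, Mxd4, Mxd1 and Max, 1 library per condition. Myc went from Th2 to Th0 ratios of 3.01 and 3.23 at 4 and 8 h to 0.755 at 24 h, and Max lay below Th0 and Th1 in Th2 at every time point.

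The actinomycin series asked how fast each transcript was lost once transcription was blocked. RPKM is relative to the RNA left, so a slope of 0 means loss at the pace of the average transcript. Myc measured 194, 117, 49.5 and 60.5 RPKM at 0, 1, 2 and 4 h. Its log2 change from 0 h was -0.73, -1.96 and -1.68, and only 2.21%, 0.208% and 1.06% of 10571 genes had a lower change at these hours. Myc was the 1 member of 9 called, with a slope of -0.42 per hour (SE 0.06, limma on log2(RPKM + 0.1), adjusted p = 6.13e-08), where 6.01% of genes were called lower. This test has 1 library per hour from 1 series and borrows most of its precision from other genes. The exact two-sided permutation p of the Myc slope over the 4 time points was 0.167, and the smallest this design allows is 0.0417. Without the 0 h library the Myc slope was -0.25 and not called, and without the 4 h library it was -0.98.

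Mlx also had an adjusted p under 0.05, with 30.2, 29.1, 21.3 and 17.5 RPKM and a slope of -0.21 per hour that was under 2-fold over 4 h (limma, adjusted p = 0.00664, exact permutation p = 0.0417). The other members were not called and had adjusted p-values above 0.05. Max measured 67.9, 64.2, 64.8 and 61.2 RPKM, Mxd1 9.58, 8.30, 8.14 and 9.22 RPKM, and Mxd3 1.40, 1.43, 1.17 and 1.23 RPKM. Mxd4 measured 8.98, 8.52, 13.1 and 12.0 RPKM, Mxi1 2.96, 2.15, 2.21 and 2.21 RPKM, Mnt 18.5, 17.8, 13.6 and 16.3 RPKM and Mga 21.9, 17.7, 15.9 and 19.4 RPKM. Mycn was under the filter, at 0.429, 0.260, 0.167 and 0.0842 RPKM. The ratio of Myc to repressors went from 4.68 to 3.05, 1.30 and 1.48. At 0 h, Myc (194 RPKM) and Mlx (30.2 RPKM) were below all 3 cultures of 16 h. Those had 247 to 315 RPKM of Myc and 41.4 to 48.3 RPKM of Mlx. Max (67.9 against 73.3 to 90.4 RPKM), Mxd4 (8.98 against 13.1 to 16.3) and Mga (21.9 against 23.6 to 25.5) were also below all 3. Mnt (18.5 against 12.7 to 14.3 RPKM) and Mxd3 (1.40 against 0.636 to 1.15) were above all 3. Mxd1, Mxi1 and Mycn lay within their range. The 4 actinomycin libraries also differed from the 16 h cultures in marker sums. B cell markers were at 3.34 to 4.82 against 17.2 to 20.0 RPKM, and macrophage markers at 56.0 to 79.1 against 13.3 to 30.8 RPKM. Red-cell sums overlapped. The part of this in the differences of the members was not tested.

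**Figure D5:**
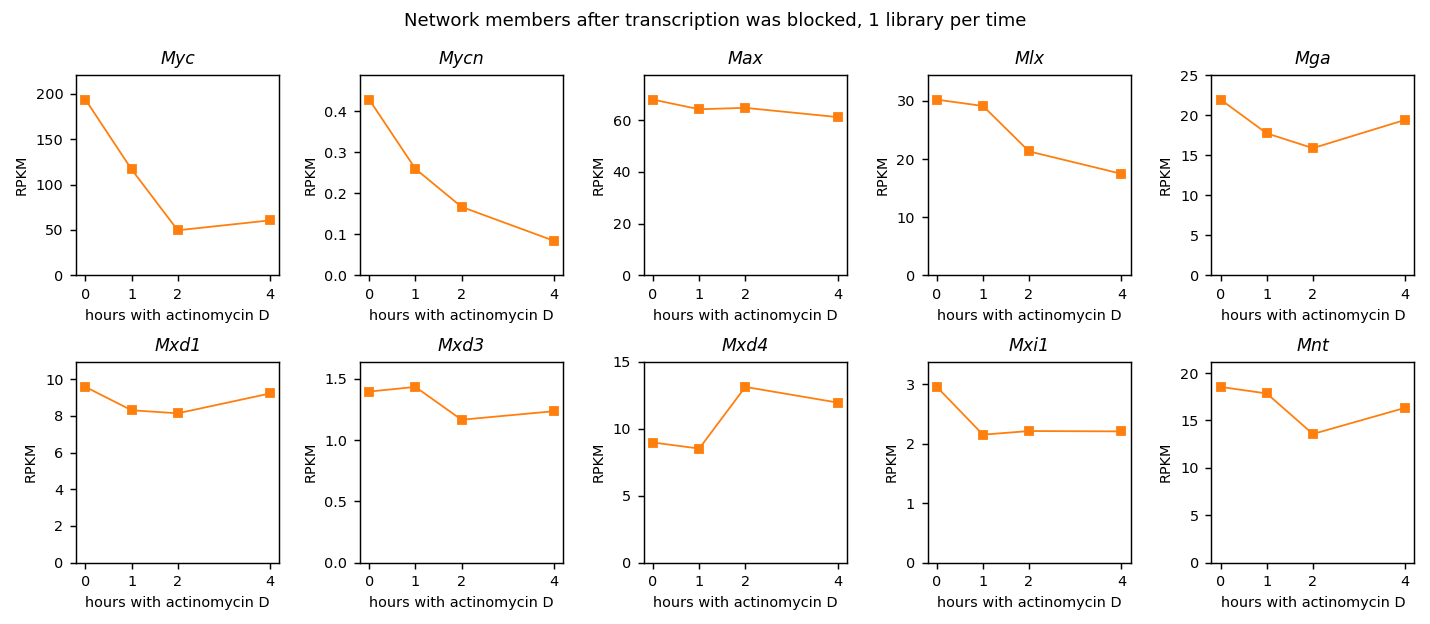
RPKM (linear axes from 0) of the 10 members at 0, 1, 2 and 4 h with actinomycin D, 1 library per time. Myc went from 194 to 60.5 RPKM and Mlx from 30.2 to 17.5 RPKM, while Max stayed between 61.2 and 67.9 RPKM.

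Most listed genes known to be switched on by Myc rose by 24 h. The lists of genes activated and repressed by Myc were chosen with earlier results of these data known. The part of that choice in their counts was not tested. Of 30 listed, all tested, 27 were higher at 24 h and none lower, where 12.7% of all genes were called higher and 17.4% lower, with a median log2 change of 1.83 beside -0.04 over all genes. The 3 largest rises were Bcat1, a branched-chain aminotransferase (5.38), Hk2, the first enzyme of glycolysis (3.62), and Srm, spermidine synthase (3.08), with limma adjusted p-values of 2.7e-07, 4.68e-07 and 1.69e-05. Cdk4, a G1 kinase, rose by 1.68, and Ldha, lactate dehydrogenase, by 1.57. Both were picked, after the values were seen, from the listed genes with several E-boxes. Apex1, with 3 E-boxes, and Eif4e, with 2, were also such genes. The 3 that were not called were Slc2a1 (0.94), Odc1 (0.88) and Tfrc (0.41), which is also on the list of activation markers. At 4 h, where 2.61% of all genes were called higher and 7.97% lower, 1 was higher, Bcat1 (2.08, limma, adjusted p = 0.00569), and 1 lower, Tfap4 (-1.26, limma, adjusted p = 0.00563), and the median was 0.26. Both 4 h calls were lost without the Th1 cultures, that of Bcat1 also without resting replicate 2 and that of Tfap4 without resting replicate 1.

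Of the 8 genes listed as repressed by Myc, 7 were tested. At 24 h, 4 were lower: Gadd45a, a stress-response gene (-3.92), and the cell-cycle inhibitors Cdkn1b (-2.57), Cdkn2c (-2.20) and Btg2 (-2.00), beside 17.4% of all genes called lower. The inhibitor Cdkn1a was the 1 of 7 higher (12.7% of all genes), by 2.75 at 24 h and 3.36 at 4 h, where it was the only one called. Cdkn1b was also the one listed gene that differed between conditions, lower in Th2 than in Th0 (difference -1.07, limma, adjusted p = 1.04e-05), where 2.01% of all genes were called in either direction. This call was lost without the 8 h time point. No listed gene activated by Myc was called between conditions, and their median difference was 0.53 for Th2 minus Th0, 0.23 for Th2 minus Th1 and 0.28 for Th1 minus Th0.

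A count made after the values were seen gave 17 of the 30 activated genes with a Th2 to Th0 difference that fell with time, as for Myc, beside 3.21% of all genes. The steepest were Bcat1 (-0.13 per hour), Srm (-0.10) and Ccnd2 (-0.09), and no gene of the list was called the other way. The count was 4 without the 24 h and 6 without the 20 h time point, 11 without the 16 h time point, and 8 with no filter on low values.

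Genes of proteins that act with the network were called at shares near those of all genes. Of 9 corepressor genes, 2 were higher at 24 h, Pcgf6 (1.17) and E2f6 (1.04), both partners of Mga in its Polycomb complex. Of 11 coactivator genes, 2 were higher, the ATPases Ruvbl1 (1.77) and Ruvbl2 (1.71). With 12.7% of all genes called higher, both counts are near the background and no result about these lists. Among the genes of Myc turnover described here, Trim32, a ubiquitin ligase, was higher (1.18) and Usp28, a deubiquitinase, was lower (-1.26). None of the genes named from these 3 lists was called at 4 h or between conditions. The Usp28 call was lost without either resting library, and that of E2f6 with totals taken without red-cell genes (0.95). Of the other Myc and Mlx partners (Mycl, Mlxip and Mlxipl), only Mlxip passed the filter, with a change of -0.48 at 24 h (limma, adjusted p = 0.0152), under 2-fold.

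The genes whose course was most like that of Myc over the 20 libraries of the time course were Cirh1a (Pearson r = 0.99), Imp4 (r = 0.988) and Naf1 (r = 0.988), out of 10897 genes on log2(RPKM + 0.5). Cirh1a averaged 20.5 RPKM at rest and 87.2 RPKM at 24 h. Those most like Mxd4 were Zfp831 (r = 0.962), Fbxo9 (r = 0.960) and Rbl2 (r = 0.953), and Rbl2 averaged 49.9 RPKM at rest and 16.7 RPKM at 24 h. These correlations are a description, since the points share their time course and the resting libraries stand apart.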

How the data were processed

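RNA of 24 libraries was sequenced on an Illumina NextSeq. The submitters' processing notes name BWA and GRCm38, with no version given in the sources used here. The authors counted reads per gene symbol and deposited RPKM values, 22010 entries of which 22009 are named. The 10 members, the gene lists and the tests were chosen with earlier results of these data known. Every member and, of other lists, at most 3 called rises and 3 falls are named, with counts of 5 or fewer named in full, except that 1 called rise on the list of Myc turnover genes is not reported here. For Myc and Mxd4, the 3 genes of highest Pearson correlation were added.

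From the deposited RPKM, changes were fitted with limma 3.58.1 in R 4.3.3 (lmFit, eBayes with an intensity trend, Benjamini-Hochberg) on log2(RPKM + 0.5), or + 0.1 for the actinomycin series, keeping genes that averaged 1 RPKM or more. Times were compared with rest over 20 libraries (10897 genes), conditions over 18 cultures with time as a factor (10737 genes), moving differences as condition by hours, called at 2-fold over 20 h, and decay as a slope on hours, called at 2-fold over 4 h (10571 genes). The fits were tested on simulated data. Mapped reads were recovered from the steps of low RPKM values, within 0.02 of whole steps. They served for depth only, as 1 of 10 members gave whole reads. Alternatives were other pseudocounts, filters, scalings and fits, and leaving out libraries, conditions or times. Python 3.11.15 made the other tables. The counting tool and its use of strand are not given in the sources used here.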

Additional observations from a re-analysis of the deposited data

Results flagged for a closer look

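The Th2 to Th0 difference of Myc moved with time, by -0.11 log2 units per hour over 4 to 24 h in a limma interaction fit (adjusted p = 0.00454): the Th2 culture was above Th0 at 4, 8, 12 and 16 h and below it at 20 and 24 h. It was the difference between conditions in the course over time that drew attention, and the slope lay between -0.12 and -0.10 over 15 alternatives. The Th2 to Th0 difference of Mxd4 moved the other way, by 0.0639 log2 units per hour (limma, adjusted p = 0.0461), with Th2 below Th0 up to 16 h and above it at 20 and 24 h, and over 15 alternatives its adjusted p ran from 0.0043 to 0.17. Each value of these slopes rests on 1 library per condition and time, and the libraries of a condition may be draws from 1 culture.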

How the results depend on the processing

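Directions were checked for the changes and slopes of single members with the lower adjusted p-values, and none was reversed under any alternative run. Weaker printed differences were not in this check: that of Mxd1 between Th1 and Th0, and those of Mxd1 and Mxi1 between Th2 and Th1. Over the member changes in this check and the list counts, 925 values under alternatives kept their call or stayed within 1.5 times. A call was lost by 15 and gained by 5, and 25 counts moved further. The count of members stayed within that range throughout in 5 comparisons: at 8 h against rest, the 3 between conditions, and the moving Th1 to Th0 difference. A filter at a mean of 5 RPKM, which drops Mxd3 and Mxi1, left 2 members called at 12, 16, 20 and 24 h and 3 from 4 to 24 h. The count at 4 h ran from 0 (without resting replicate 1) to 2 (without Th0 cultures) over libraries left out. Members whose Th2 to Th0 difference moved with time were 1, Myc alone, with no filter, with median-of-ratios scaling, with no intensity trend and with totals without red-cell transcripts, and 1 to 2 with a time point left out. For Th2 to Th1 this count was 0 to 1, with Myc called without the 8 h time point. Members with a slope after actinomycin numbered 0 to 1 with 1 library left out, 0 without the 0 h library. From 4 to 24 h, the Myc and Mxd4 calls were lost without the Th1 cultures, and Mnt was called without them and with totals without red-cell transcripts. The ratio of Myc to repressors at 24 h was 10.5 without Mnt and 7.29 with quantile normalization. At 24 h, scaling moved the log2 median over the genes tested from -0.04 to 0.13 with quantile normalization and 0.10 with median-of-ratios scaling, and members were called the same there. No pairing by replicate was possible, because the groups compared share fewer than 2 replicate numbers. Conditions were compared within time points, with the hour as a factor. Depth limits Mycn, which was under 1 RPKM in every library, and Mxd3 after 12 h. The one library per condition and time sets the error of every comparison between conditions.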
